A study of Danio rerio with 5 samples.

Results

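Retinal ganglion cells (RGC) were examined among cells sorted from zebrafish eyes during the first days of development. RGC were selected on expression: a cell was chosen by a UMI (unique molecular identifier, 1 counted RNA molecule) of at least 2 of the 7 genes rbpms2b, islr2, isl2b, pou4f1, pou4f2, pou4f3 and eomesa. A cell with a UMI of 2 or more of the 6 amacrine and horizontal cell genes slc32a1, gad1b, gad2, ptf1a, slc6a9 and barhl2 was left out. By this rule 231 of 12234 cells were RGC, a share of 1.89% (exact 95% interval 1.65% to 2.15%). The cells came from AB embryos that carry Tg[foxc1b:GFP], in which GFP is driven by foxc1b sequence, and eyes were dissected at 48, 72, 96, 120 and 144 hours post fertilization (hpf), dissociated and sorted for GFP. All groups share this line and sort, no unsorted cells and no second genotype stand beside them, and the sort was aimed at periocular mesenchyme of the anterior segment, not at neurons. Each of the 5 time points held pooled embryos in a library A and a library B, which the study names independent biological replicates.

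RGC are the output neurons of the retina: they are born early from progenitors that use the transcription factor Atoh7, and their axons leave the eye in the optic nerve and reach the tectum. Isl2b, the Pou4f factors and Eomesa are transcription factors of newborn RGC and RGC subtypes, Rbpms2b is an RNA-binding protein, and Islr2 is a membrane protein of growing axons. Gap43, Stmn2 and the neuronal tubulins build the growth cone and the microtubules of a growing axon.

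RGC were unevenly spread over libraries. In time order they numbered 12 of 842 cells in 48 hpf A, 5 of 916 in 48 hpf B, 21 of 722 in 72 hpf A, 3 of 657 in 72 hpf B, 1 of 478 in 96 hpf A, 9 of 1452 in 96 hpf B, 14 of 1897 in 120 hpf A, 98 of 2759 in 120 hpf B, 68 of 2409 in 144 hpf A and 0 of 102 in 144 hpf B. Libraries 120 hpf B and 144 hpf A alone held 71.9% of all RGC, and 5 libraries (48 hpf A, 72 hpf A, 120 hpf A, 120 hpf B and 144 hpf A) had the 10 or more RGC asked of a library for a comparison, 213 cells in all. The highest share was 3.55% in 120 hpf B (exact 95% interval 2.89% to 4.31%), beside 0.738% in 120 hpf A (0.404% to 1.24%), so the 2 libraries of 1 time point differed beyond counting error. The count of 0 in 144 hpf B allows a share of up to 2.94% on a floor of 3 cells and up to 3.55% by the exact interval. The median RGC had 2397 UMIs (range 489 to 31074), near the 2447 UMIs of all other cells, but only 689 UMIs in 120 hpf A against 3202.5 in 120 hpf B. These intervals cover counting error only.

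**Figure D1:**
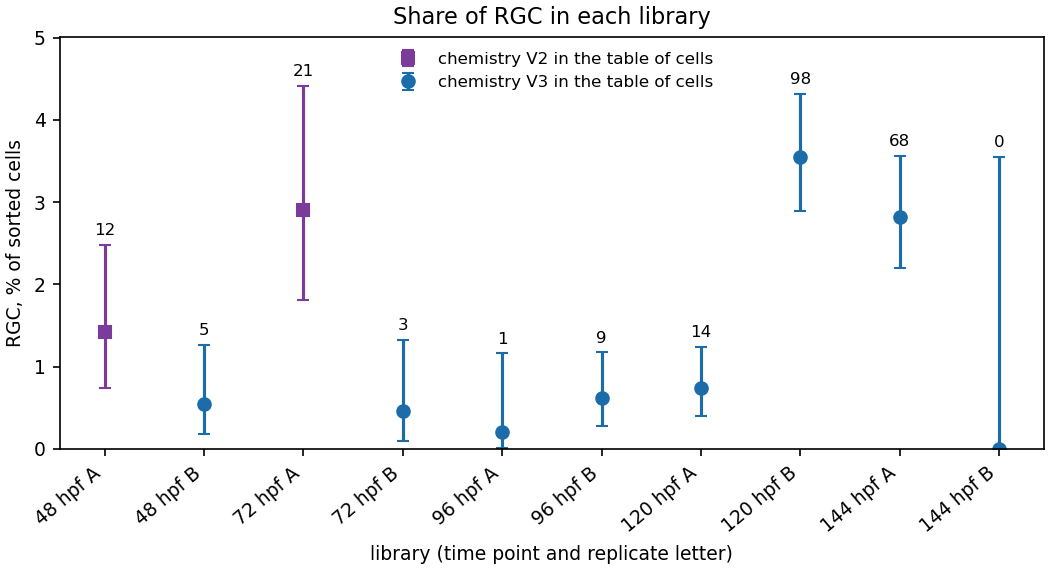
RGC as a percent of sorted cells (vertical axis) in each of the 10 libraries (horizontal axis), with exact 95% binomial intervals as bars and the number of RGC above each point; squares are libraries listed as chemistry V2 and circles V3. Shares run from 0 in 144 hpf B to 3.55% in 120 hpf B, and the intervals of A and B do not overlap at 72 and 120 hpf.

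The share of RGC did not differ detectably between late and early libraries. It averaged 1.78% over the 4 libraries of 120 and 144 hpf, against 1.33% over the 4 libraries of 48 and 72 hpf, a difference of 0.444 percentage points (late minus early; exact two-sided permutation test, p = 0.714, of 70 groupings). The ranges overlapped, from 0 to 3.55% in late libraries and from 0.457% to 2.91% in early libraries. Without 120 hpf B the difference was -0.147 points, and thinning every cell to 1000 UMIs gave 0.403 points. Both early libraries with at least 10 RGC were listed as chemistry V2 and all late ones as V3, so time and chemistry cannot be told apart in the comparison of genes over these libraries. Of these libraries 120 hpf B and 144 hpf A were also listed in the same batch, and each of the others in a batch of its own. Among V3 libraries alone the shares were 0.738%, 3.55%, 2.82% and 0% late, against 0.546% in 48 hpf B and 0.457% in 72 hpf B.

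The genes used by the rule describe the cells and are no result. rbpms2b was found in 216 RGC (93.5%), islr2 in 201 (87.0%), isl2b in 130 (56.3%), pou4f1 in 83 (35.9%), pou4f2 in 30 (13%), pou4f3 in 21 (9.09%) and eomesa in 17 (7.36%). In 3732 epithelial cells (a UMI of at least 3 epithelial markers), which should lack them and had a median of 2555 UMIs against 2397 in RGC, the shares were 3.54% for rbpms2b, 0.563% for islr2 and 0.911% for isl2b. Cells chosen as RGC, or as the amacrine, horizontal and bipolar cells described below, were left out of these epithelial cells. The low shares were thus set in part by the rule itself. The most frequent pattern was rbpms2b with islr2 alone (53 cells), then isl2b with both (46 cells) and those 3 with pou4f1 (25 cells). Of the excluded genes, barhl2, a homeobox gene shared by amacrine cells and RGC, was found in 72 RGC (31.2%), gad2 in 1 cell and the others in none.

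The unit of level is CPM, a gene's UMIs for every 1000000 UMIs counted in the same cells, and since only 3' ends were read they are not corrected for length. rbpms2b was at 2535 CPM in RGC of 48 hpf A, 1389 in 72 hpf A, 6100 in 120 hpf A, 3790 in 120 hpf B and 2907 in 144 hpf A, against 46.6 CPM in all other cells of the series. islr2 was at 922, 1062, 5835, 1345 and 988 CPM in RGC of the same 5 libraries, against 5.19 CPM in all other cells. isl2b was at 288, 735, 2033, 794 and 687 CPM, against 2.30 CPM in all other cells. All 3 were highest in 120 hpf A, the library with the shallowest RGC. pou4f2 and pou4f3 were at 0 in 48 hpf A and between 35.6 and 265 CPM in the 3 late libraries, and pou4f2 was at 10.2 and pou4f3 at 0 CPM in 72 hpf A.

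gap43, a growth cone protein that marks RGC, was not part of the rule and was looked at in the chosen cells. It is a gene of growing axons, and no class of cranial sensory neurons stood beside it, so it cannot set RGC apart from those. gap43 was found in 176 of 231 RGC and was at 691, 787, 2387, 2148 and 1319 CPM in RGC of the 5 libraries, against 4.60, 7.49, 3.25, 9.67 and 4.98 CPM in their other cells. At the edge of the rule, cells with exactly 2 genes (85 cells) had 688 CPM of gap43, those with 3 or more (146 cells) had 2226 CPM, and the 1167 cells with 1 gene, which were not chosen, had 20.1 CPM. The keratin krt91, an epithelial gene, summed to 8800 CPM in cells with 2 genes, 281 CPM in cells with 3 or more and 7642 CPM in the cells with 1 gene. It was found in 25.9%, 22.6% and 34.7% of these cells, and a single RGC held 52.7% of all krt91 UMIs of RGC.

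A small set of chosen cells lacked neuron genes. In 23 of the 231 RGC none of the neuron genes gap43, stmn2b, gng3 and elavl3 was found, a set of 4 genes picked after their values were seen. These 23 cells held 19.5% of all RGC UMIs and 59.9% of the RGC UMIs of the epithelial marker list, since 5 of the 8 RGC over 10000 UMIs were among them. Their rbpms2b was at 308 CPM and their tubb5 at 201 CPM, against 3634 and 3140 CPM in the other 208 cells. These pooled levels came mostly from deep cells: rbpms2b was at 20.1 CPM in the 4 such cells of 72 hpf A, but at 4080 CPM in the 1 of 48 hpf A and 4732 CPM in the 1 of 120 hpf A, and tubb5 was at 6345 CPM in the 2 of 72 hpf B, so not every one of the 23 went against the label. Of the 23, 2 cells of 144 hpf A held 50.2% and 48.6% of all pvalb8 UMIs of RGC, a calcium-binding protein of the parvalbumin family. The epithelial list as a whole (6 of 6 genes found) was at 7280 CPM in RGC, with 202 CPM in 48 hpf A, 7743 in 72 hpf A, 2564 in 120 hpf A, 6219 in 120 hpf B and 10472 in 144 hpf A, against 36764 CPM in all other cells. Just 2 cells held 37.7% and 36.6% of it, 1 in 144 hpf A and 1 in 120 hpf B, and the second had a UMI of one of the 4 neuron genes. Counts without the 23 cells are given beside the class and time comparisons, in fits that leave out the 4 genes that chose them.

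Markers of most other cell types were at lower levels in RGC than in other cells. Photoreceptor markers (6 of 9 found) summed to 23.8 CPM in RGC against 386 CPM in other cells, progenitor markers (11 of 12) to 423 against 2345 CPM, mesenchyme markers (10 of 10) to 4575 against 10616 CPM, and no UMI of a leukocyte or lens marker was found in RGC. Hair cell markers were at 22.4 against 6.04 CPM, and markers of cranial sensory neurons, which share isl2b, islr2 and the Pou4f genes with RGC, were at 102 against 98.8 CPM. The sensory list differed by library. It was at 144, 409, 0, 3.16 and 86.5 CPM in RGC of 48 hpf A, 72 hpf A, 120 hpf A, 120 hpf B and 144 hpf A. Other cells of these libraries were at 188, 231, 103, 59.6 and 43.1 CPM. RGC were also above other cells in 48 hpf B (381 against 130 CPM) and 72 hpf B (481 against 257 CPM). Of those sensory markers 5 of 14 were found, led by six1b and eya1 at 46.2 CPM each, and 7 RGC had a UMI of 2 or more of them. The sensory ion channel gene p2rx3b had 4 UMIs in 2 RGC, while tlx3b, prdm12b and drgx were at 0 UMIs. eGFP had 0 UMIs in every cell of the series, so the reporter could not be checked, and foxc1a or foxc1b was found in 5 RGC. Mueller glia markers were at 2421 against 2397 CPM, and amacrine and horizontal markers at 290 against 111 CPM. The mesenchyme list stood above other cells in 144 hpf A (9362 against 8842 CPM) and in the 1 RGC of 96 hpf A. In all, 45 RGC held 2 or more genes of the epithelial, mesenchymal, photoreceptor or lens list, among them all 9 RGC of 96 hpf B, all 5 of 48 hpf B and 8 of the 14 of 120 hpf A.

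Beyond the rule, the genes gap43, stmn2b, tubb5, tmsb, stmn2a and gng3 of the axon growth list were among the 20 that stood highest in RGC over all other cells, and the others were of other lists or of none. The ratio was taken within each library as log2 of CPM in RGC over CPM in the other cells, with 10 CPM added to both, and since the cells were chosen on expression it is a description with no test. gap43 led at 6.37 ± 0.84 (SD, n = 5 libraries), followed by stmn2b, a regulator of microtubule breakdown, at 6.22 ± 0.46 (917 CPM in RGC against 3.53 CPM in other cells) and the beta tubulin tubb5 at 5.24 ± 1.16 (2566 against 60.3 CPM). The actin-binding thymosin tmsb followed at 5.23 ± 1.63, and stmn2a and stmn1b stood at 5.22 and 5.08. The G protein subunit gng3 was at 4.99, the helix-loop-helix gene id4 at 4.84, and rbpms2a, the duplicate of rbpms2b, at 4.72. Transcription factors among the 20 highest genes were irx4a (4.65), ebf3a (4.64), scrt2 (4.58) and barhl1a (4.57). Summed over all libraries, scrt2 was at 967 CPM in RGC, 728 in amacrine and horizontal cells and 852.5 in bipolar cells, classes described below. irx4a, ebf3a and barhl1a were at 203, 573 and 298 CPM in RGC and at most 38.4 CPM in those classes. They also held gpm6ab (3639 CPM in RGC against 1180 and 1523) and stmn1b (4001 against 1667 and 425). gng3 was at 1061 against 438 and 68.8 CPM. The neurofilament-like internexin inab was at 4.55 and the SNARE protein snap25a at 4.46, and the remaining genes were zgc:158291, mllt11, gpm6ab, tuba2 and zgc:153426. Each of the 20 was above 0 in all 5 libraries, which their choice asked of all but at most 1, so nothing is read from it. Of the 9990 genes with a UMI in RGC 7.31% were, and their median ratio was -0.10.

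**Figure D2:**
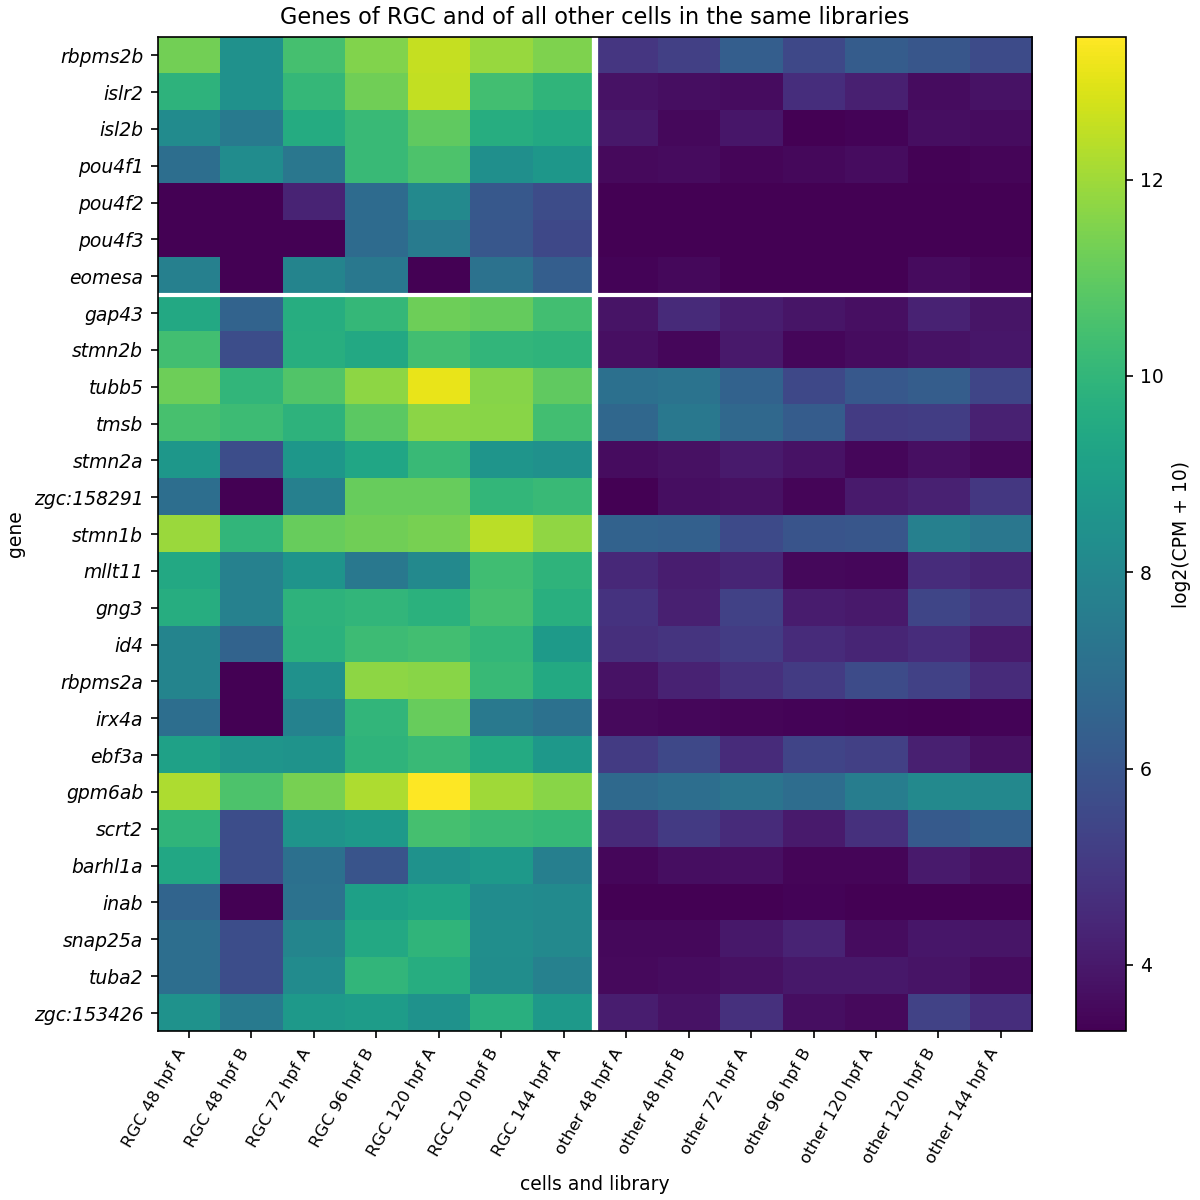
Level as log2(CPM + 10) (colour) of the 7 genes of the rule (above the horizontal line) and the 20 genes with the highest ratio (below it), in RGC (left block) and in all other cells (right block) of the 7 libraries with at least 5 RGC. The RGC block is brighter in nearly every row, with 48 hpf B (5 RGC) the dimmest RGC column: gap43 is at 84.6 CPM there against 691 in 48 hpf A.

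By role, the axon growth and microtubule list (20 of 22 matched genes found) summed to 13482 CPM in RGC against 578 CPM in other cells, and 16 of its genes had a ratio above 0 in all 5 libraries. Neuritin nrn1a was in 116 RGC at 441 against 2.11 CPM, and the collapsin response mediators dpysl2b and dpysl3 were at 503 and 393 CPM against 26.3 and 10.9 CPM. The neurofilament list was at 431 against 3.47 CPM, carried by inab (253 CPM, 90 cells) and the peripherin prph (167 CPM, 40 cells). The adhesion and guidance list was at 4357 against 557 CPM, of which alcama, a cell adhesion molecule of RGC axons, gave 1873 CPM and the chemokine receptor cxcr4b 1369 CPM. RNA-binding proteins of neurons were at 2963 against 299 CPM, led by nova2 at 1396 CPM, with rbpms2a at 892 and elavl3 at 154 CPM in RGC. This list was also at 1737.5 CPM in amacrine and horizontal cells and 1825 CPM in bipolar cells. nova2 was found in 85.7% of RGC, 87.5% of amacrine and horizontal cells and 86.2% of bipolar cells.

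Genes of mature transmission differed in level. Synaptic vesicle genes (16 of 19 found) summed to 2354 CPM in RGC against 199 CPM in other cells, led by snap25b (468 CPM), sncb (431 CPM) and vamp2 (259 CPM). Transmitter receptors were at 384 against 17.3 CPM, with the NMDA receptor subunit grin1a at 111 CPM in 43 cells. Glutamate transporters, which load the transmitter of RGC into vesicles, were nearly unseen: slc17a6b was found in 8 cells (15.4 CPM), and the melanopsins opn4.1 and opn4xa at 1 UMI each. The neuropeptide gene adcyap1b (PACAP) was found in 52 cells at 116 CPM, while bdnf, npy and cart4 had no UMI. Genes of the visual field map were at 700 against 282 CPM, the highest being hmx4 (207 CPM) and foxd1 (164 CPM), both of the nasal or temporal side of the retina. In amacrine and horizontal cells the synaptic vesicle, transmitter receptor and visual field map lists were at 3151, 443 and 871 CPM, each above RGC. Bipolar cells had these lists at 1386, 224 and 437 CPM.

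Transcription factors outside the rule differed in how many RGC they were found in. isl1 was found in 122 RGC, irx4a in 47, isl2a in 29, mafaa in 19 and tbr1b in 10. Of 17 cells with eomesa, 11 also had irx4a, 3 had pou4f1 and 0 had pou4f3. Of 21 cells with pou4f3, 15 had pou4f1 and 12 had isl2b. Absence of a UMI at a median of 2397 UMIs per cell is not absence of expression. Doublets were left in as well, so these counts are not limits of the true overlaps in either direction. Each cell had to hold at least 2 genes of the rule, which include eomesa, pou4f1, pou4f3 and isl2b, so their overlaps are set in part by that choice and were not tested.

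atoh7, the gene of the RGC birth program, was found in 57 of 231 RGC (24.7%, exact 95% interval 19.3% to 30.8%), against 5.54% of other cells and 2.09% of epithelial cells. This interval pools cells of all libraries and covers counting error only, not the spread between libraries. The share was 33.3% of 12 RGC in 48 hpf A, 9.52% of 21 in 72 hpf A, 0% of 14 in 120 hpf A (interval up to 23.2%), 29.6% of 98 in 120 hpf B and 30.9% of 68 in 144 hpf A. Of other cells 8.80% had a UMI in 144 hpf A and 9.13% in 120 hpf B, and thinned to 1000 UMIs the share of RGC was 27.8% in 120 hpf B and 33.3% in 144 hpf A. The shallow RGC of 120 hpf A left 1 cell at that depth.

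RGC with and without an atoh7 UMI carried different genes, described here for the 2 libraries with the most cells, with no test because the genes were chosen after their values were seen. cxcr4b was at 2432 CPM with atoh7 found against 593 without in 120 hpf B, and at 4955 against 302 CPM in 144 hpf A. alcama was at 3468 against 1942 CPM and 3181 against 922 CPM, and sox11b, a factor of newborn neurons, at 1151 against 480 and 1300 against 245 CPM. hes6, a neurogenesis gene, was at 856 against 254 CPM and 1042 against 155 CPM. All 4 were higher in cells with atoh7 in both libraries. In 48 hpf A (4 cells with atoh7) and 72 hpf A (2 cells) cxcr4b, sox11b and hes6 were higher with atoh7 as well, while alcama was at 2407 against 1709 CPM and 0 against 449 CPM.

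In the same 2 libraries isl2b and pou4f1, both genes of the rule, and genes of neurofilaments and synapses were lower with atoh7. isl2b was at 273 CPM with atoh7 found against 1203 without in 120 hpf B, and at 190 against 987 CPM in 144 hpf A, but it was higher with atoh7 in 48 hpf A (314 against 278 CPM) and 72 hpf A (916 against 727 CPM). pou4f1 was at 108 against 491 and 13.5 against 628 CPM, inab at 86.3 against 457 and 67.7 against 408 CPM, and snap25b at 115 against 926 and 176 against 604 CPM. The synuclein sncgb was at 50.4 against 395 CPM and 0 against 408 CPM, and grin1a at 7.20 against 169 CPM and 0 against 261 CPM. Among libraries with at least 10 RGC, the synaptic vesicle list as a whole was lower with atoh7 in all 4 that had such cells. It was at 105 against 795 CPM in 48 hpf A, 229 against 1411 in 72 hpf A, 806 against 4460 in 120 hpf B and 812 against 3052 in 144 hpf A. In 48 hpf B, with 1 such cell, the split was not made. In these 2 libraries rbpms2b did not divide the cells in 1 direction (3331 against 4150 CPM and 3574 against 2505 CPM), and neither did gap43 (1482 against 2670 CPM and 1652 against 1118 CPM). With atoh7 found, gap43 was at 0 against 954 CPM in 48 hpf A and 0 against 823 CPM in 72 hpf A. rbpms2b was at 3663 against 2107 CPM and 3436 against 1294 CPM there. Cells with atoh7 were deeper, with a median of 4068 against 2398 UMIs in 120 hpf B and 3320 against 1830 in 144 hpf A. The epithelial list moved in opposite directions in the 2 libraries, at 13700 against 350 CPM and 149 against 16694 CPM, and its part in these values was not tested.

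**Figure D3:**
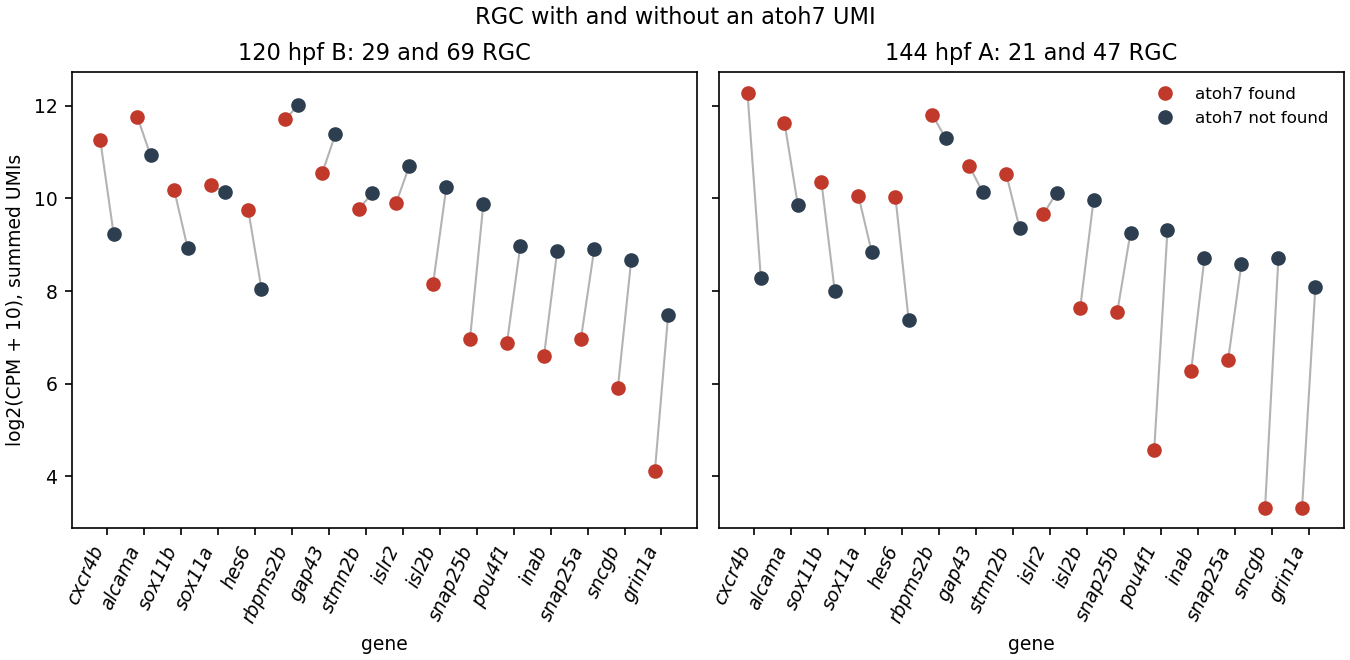
Level as log2(CPM + 10) of 16 genes (horizontal axis) in RGC with an atoh7 UMI (red, left of each pair) and without one (dark, right), in 120 hpf B (29 and 69 cells) and 144 hpf A (21 and 47 cells). cxcr4b, alcama, sox11b and hes6 stand higher with atoh7 in both libraries, and isl2b, pou4f1, inab, snap25a, snap25b, sncgb and grin1a lower.

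Few genes were called as changed with time within RGC. Time was fitted as a number over the 5 libraries with at least 10 RGC, by edgeR's quasi-likelihood test with Benjamini-Hochberg adjustment over 2544 genes, and changes are given as log2 per 24 h. At an adjusted p of 0.05, 8 genes passed (0.314% of those tested), 4 higher and 4 lower with time (0.157% each). Before adjustment 165 genes were higher and 96 lower at p under 0.05. The rule uses no time, and its 7 genes were left out of the test. With RGC of at least 3 of the 7 genes, 35 genes were higher and 3 lower over 3 libraries, and these included 2 of the 4 higher and 0 of the 4 lower. That rule left 48 hpf A with 6 RGC and 120 hpf A with 9, under the 10 asked of a library. Rule and libraries thus changed together, and their parts in the calls cannot be told apart.

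The 4 genes that rose were not found in RGC of either early library. Those RGC held 34714 UMIs in 48 hpf A and 97898 in 72 hpf A, so low levels there could go unseen. ptgdsb.1, a prostaglandin D2 synthase of the lipocalin family, was at 0 CPM in 48 hpf A and 72 hpf A, 177 in 120 hpf A, 47.5 in 120 hpf B and 417 in 144 hpf A (log2 change 3.01 ± 0.46 SE, edgeR adjusted p = 0.00173). The related ptgdsb.2 was at 0 in 48 hpf A, 72 hpf A and 120 hpf A, 114 in 120 hpf B and 545 CPM in 144 hpf A (2.84 ± 0.45, edgeR adjusted p = 0.00187), and the metallothionein mt2 at 0, 0, 177, 94.9 and 397 CPM (2.43 ± 0.40, edgeR adjusted p = 0.00233). In 120 hpf A the 177 CPM of ptgdsb.1 and of mt2 was 2 UMIs each. ptgdsb.1, ptgdsb.2 and mt2 were found in 8, 11 and 13 RGC, and a single cell held 63.0%, 49.7% and 47.7% of their RGC UMIs. They also stood higher late in the other cells of the same libraries: ptgdsb.1 was at 89.2, 172, 353, 551 and 1005 CPM there. nrgna, which encodes the calmodulin-binding neurogranin of postsynaptic sites, was found in 25 RGC at 0, 0, 0, 171 and 280 CPM (1.92 ± 0.42, edgeR adjusted p = 0.0403). Its other cells were at 0.270, 38.4, 10.3, 36.9 and 19.98 CPM, so RGC stood above them in 120 hpf B and 144 hpf A alone among the 5 libraries.

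The 4 genes that fell were highest in RGC of 48 hpf A. The alpha tubulin tuba8l3 was at 864, 296, 0, 22.1 and 10.2 CPM in time order (-1.66 ± 0.24, edgeR adjusted p = 0.00169) and pcna, the sliding clamp of DNA replication, at 720, 409, 0, 41.1 and 15.3 CPM (-1.42 ± 0.24, edgeR adjusted p = 0.00261). In the other cells pcna was at 1767, 977, 384, 968 and 700 CPM, above RGC in each library. The translational repressor nanos1 was at 519, 429, 0, 44.3 and 30.5 CPM (-1.15 ± 0.24, edgeR adjusted p = 0.0245). fabp11a, a fatty acid-binding protein, was at 2737, 123, 0, 0 and 35.6 CPM (-1.74 ± 0.33, edgeR adjusted p = 0.0131), but 1 cell held 76.0% of its RGC UMIs. The pigment marker list was at 835 CPM in RGC of that same library, 48 hpf A, and at 0, 88.4, 0 and 5.09 CPM in the next 4, and its part in the fall of fabp11a was not tested. Of the RGC UMIs of tuba8l3 1 cell held 36.1%. In the other cells tuba8l3 was at 118, 134, 25.3, 35.1 and 7.98 CPM. There nanos1 was at 215, 278, 197, 66.3 and 54.8 CPM and fabp11a at 339, 277, 147, 212 and 113 CPM. All 4 genes thus stood lower in the other cells of 144 hpf A than in those of 48 hpf A.

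**Figure D4:**
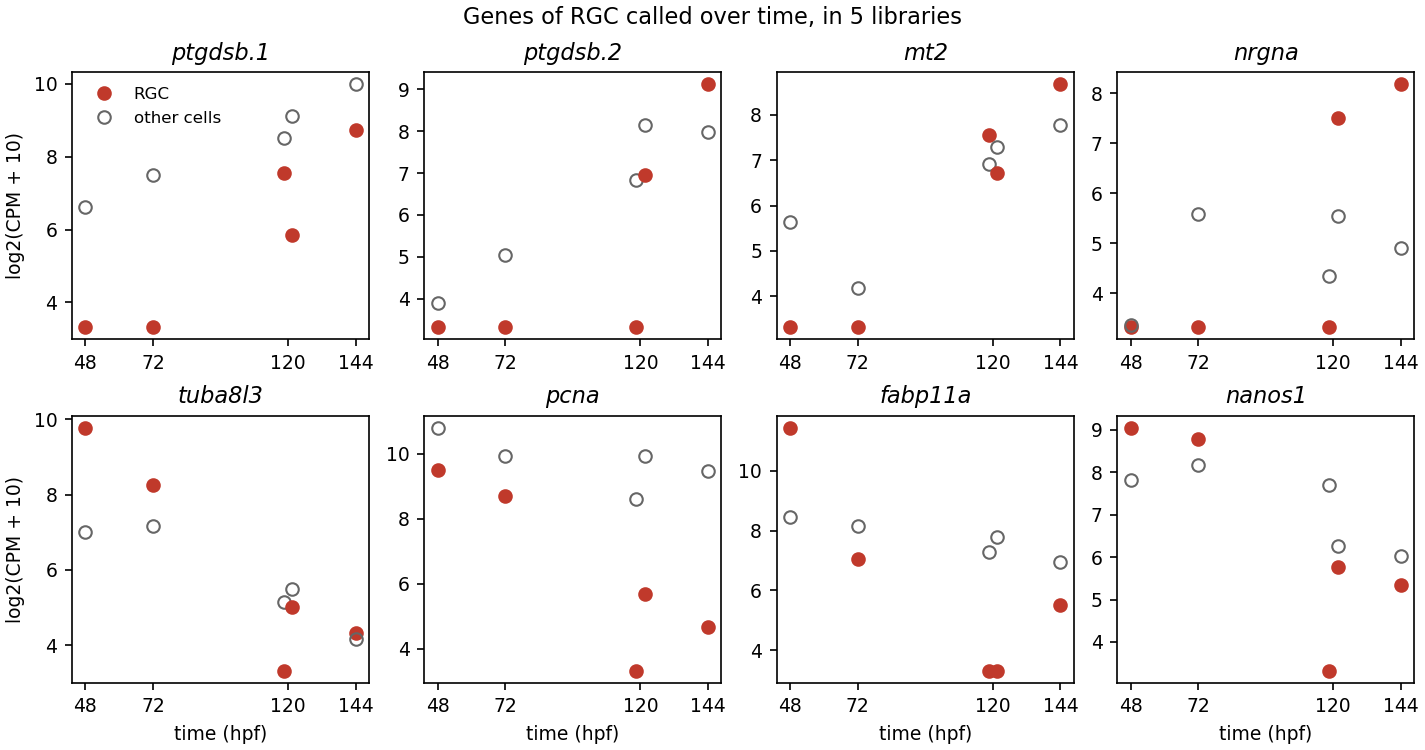
Level as log2(CPM + 10) of the 8 genes called over time (1 panel each) against time in hpf, in RGC (red) and in the other cells (open circles) of the 5 libraries with at least 10 RGC; the 120 hpf libraries are drawn side by side. RGC points of ptgdsb.1, ptgdsb.2, mt2 and nrgna lie at 0 CPM in both early libraries, and those of pcna lie below the other cells in all 5.

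Of the axon growth list 0 of 16 tested genes passed, of the synaptic vesicle list 0 of 11 and of the transcription factors 0 of 13, and pcna was the single called gene among all lists. Since 0.314% of all tested genes passed, lists of this size would hold few calls or none, and nothing is read from these counts. The medians of these 3 lists were 0.24, 0.51 and 0.12 per 24 h, beside 0.01 over all genes tested. Of the Mueller glia markers 0 of 5 passed, with a median of 1.15 per 24 h. gap43 changed by 0.40 (edgeR adjusted p = 0.679) and atoh7 by 0.36 (edgeR adjusted p = 0.744), neither past the threshold. Among the listed genes, those nearest to it were scinla, a mesenchyme marker, at 0, 358, 265, 1452 and 8537 CPM (1.73 ± 0.40, edgeR adjusted p = 0.0661), sncgb, at 0, 10.2, 88.4, 244 and 255 CPM (1.496 ± 0.348, edgeR adjusted p = 0.0661), and grin1a, at 0, 10.2, 0, 98.1 and 163 CPM (1.39 ± 0.36, edgeR adjusted p = 0.108). By the same edgeR test, 0 genes passed without 72 hpf A (104 higher and 40 lower at an unadjusted p under 0.05), 0 without 120 hpf B (85 and 39) and 0 in the 3 V3 libraries alone (38 and 10), while 4 rose and 1 fell without 48 hpf A, 7 rose and 3 fell without 120 hpf A, and 15 rose and 4 fell without 144 hpf A. By DESeq2 4 rose and 3 fell in all 5 libraries. Not all of these were the 4 genes that rose and the 4 that fell above. Shared with those were 3 and 1 without 48 hpf A, 3 and 3 without 120 hpf A, 1 and 3 without 144 hpf A, and 3 and 3 by DESeq2. With only the RGC that had a neuron gene, 2 rose (mt2 and ptgdsb.2) and 2 fell (pcna and tuba8l3), while ptgdsb.1 changed by 1.52 (edgeR adjusted p = 0.299) and nrgna by 1.83 (edgeR adjusted p = 0.0821).

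RGC were then set beside the other neurons of the inner retina from the same libraries. Amacrine and horizontal cells (297 in all) were chosen by the 6 excluded genes and bipolar cells (217) by vsx1, cabp5a, cabp5b, prdm8, gnb3a, trpm1a and grm6b, so that both sides of each comparison were chosen on expression and the counts describe how far the classes stand apart. Against amacrine and horizontal cells, 302 of 4531 genes were higher in RGC (6.67%) and 143 lower (3.16%, together 9.82%) over 3 libraries (120 hpf A, 120 hpf B and 144 hpf A). With DESeq2 size factors, which moved the median difference of all genes from -0.03 to -0.17, 262 were higher and 201 lower. Against bipolar cells, 317 of 3521 genes were higher (9% of those tested) and 269 lower (7.64%, together 16.6%) over 2 libraries (120 hpf B and 144 hpf A). These 2 libraries were listed in the same batch and were of different time points. The calls against bipolar cells therefore rest on no repeat within a time point or across batches. The genes that chose the 2 classes of a comparison were left out of its test. Of the genes that chose bipolar cells, grm6b and prdm8 were lower in RGC than in amacrine and horizontal cells. With only the RGC that had a neuron gene, the counts were 161 higher and 96 lower against amacrine and horizontal cells, and 332 higher and 312 lower against bipolar cells. Leaving out a library left 198 higher and 95 lower (without 120 hpf A), 87 and 62 (without 120 hpf B) or 104 and 52 (without 144 hpf A) against amacrine and horizontal cells.

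Most tested genes of the axon growth list were higher in RGC than in both classes. Of the axon growth list 14 of 18 tested genes were higher and 0 lower against amacrine and horizontal cells, with a median log2 difference of 2.32 beside -0.03 over all genes, and 15 of 17 were higher and 0 lower against bipolar cells, with a median of 4.38 beside -0.01. With genes unseen in bipolar cells set to their bound, the second median was 3.76. Over all tested genes 6.67% and 9% were higher. The genes nrn1a, stmn2a, stmn4l and map1b, at 0 CPM in bipolar cells, passed the count filter through RGC. Such genes could only be called higher, so these counts were set in part by the filter. With only the RGC that had a neuron gene, 10 of 15 were higher against amacrine and horizontal cells and 13 of 13 against bipolar cells. gap43 was at 2387, 2148 and 1319 CPM in RGC of 120 hpf A, 120 hpf B and 144 hpf A, against 92.1, 30.1 and 6.12 CPM in amacrine and horizontal cells, and in bipolar cells it was at 17.4 CPM in 120 hpf B and 6.92 CPM in 144 hpf A. nrn1a was at 442, 683 and 305 CPM in RGC and at 0 in both other classes in these libraries, at least 134-fold higher than in amacrine and horizontal cells and at least 56.9-fold higher than in bipolar cells, on a floor of 3 counts over each class. zgc:158291 was at least 277-fold and at least 115-fold higher on the same floor. The neurofilament genes inab and prph were higher in both comparisons. The same limit holds for them, with prph at 0 CPM in both other classes and inab at 0 CPM in bipolar cells. prph was at 88.4, 266 and 137 CPM in RGC against 0 in the 3 libraries of amacrine and horizontal cells.

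Among the other genes with the largest differences from amacrine and horizontal cells were the Iroquois genes irx4a (2210, 161 and 127 CPM against 0, 0 and 0 CPM, at least 48.0-fold) and irx2a (at least 40.9-fold), rab6ba, a Rab protein (at least 22.8-fold), and adcyap1b (at least 35.7-fold). cxcr4b was at 177, 1401 and 2052 CPM in RGC against 0, 0 and 21.4 CPM, a ratio of sums of 173. pvalb8 and npb also met the rule for named genes, but pvalb8 came almost whole from 2 cells and npb, which encodes neuropeptide B, was found in 3 cells, 1 of which held 70.8% of it. Lower in RGC were genes of amacrine identity: prdm13 (0, 0 and 0 CPM against 599, 243 and 379 CPM, at least 54.7-fold lower), the AP-2 factors tfap2b, tfap2c and tfap2e, lhx9, gbx2, and slc18a3a, the vesicular acetylcholine transporter (at least 34.6-fold lower). tfap2c was at 0, 3.16 and 0 CPM in RGC against 4329, 702 and 612 CPM. gldn, rgs9bp and icn2 completed the genes lower in RGC, and icn2, an epithelial gene, stood at 511 CPM in amacrine and horizontal cells of 144 hpf A against 2.51 CPM in those of 120 hpf B.

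Against bipolar cells the genes furthest above were mllt11 (at least 122-fold), zgc:158291, nrn1a, the complexin cplx2l (at least 39.0-fold), stmn2a (at least 38.3-fold), barhl1a (at least 35.4-fold), inab (at least 30.5-fold), kif3cb, a kinesin (at least 28.0-fold), nhlh2 (at least 26.0-fold) and ppp1r14ba (at least 24.9-fold). inab was at 294 and 280 CPM in RGC of 120 hpf B and 144 hpf A against 0 and 0 CPM in bipolar cells. Lower in RGC were bhlhe23 (0 and 5.09 CPM against 975 and 782 CPM), olig2 (0 and 0 against 383 and 332 CPM, at least 61.5-fold lower), and rs1a, the retinoschisin that holds retinal layers together (0 and 20.4 CPM in RGC, with 707 UMIs in bipolar cells against 4 in RGC). The remaining genes furthest below were samsn1a, igsf21b, slitrk6, zgc:153441, the Iroquois gene irx7, the ribbon synapse complexin cplx4a and the mitotic kinase aurkb. Of the progenitor markers 8 of 10 tested were lower in RGC than in bipolar cells, pcna and mki67 among them, and 4 of 9 were lower than in amacrine and horizontal cells. With only the RGC that had a neuron gene these counts were 9 of 10 and 4 of 9.

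Transcription factors and synaptic genes divided by class. Of 14 tested factors outside the rule, 8 were higher in RGC than in amacrine and horizontal cells (atoh7, ebf3a, irx4a, isl2a, klf7b, mafaa, sox11a and tbr1b) and 2 lower, bhlhe22 and sox4a. bhlhe22 was at 88.4, 91.7 and 91.6 CPM in RGC against 2026, 1131 and 893 CPM. Of 13 tested against bipolar cells, 8 were higher and 2 lower, isl1 and sox4a. isl1, which bipolar cells also use, was at 433 and 479 CPM in RGC against 743 and 982 CPM in bipolar cells. Of the synaptic vesicle genes, 4 of 15 were higher (snap25a, sncga, sncgb and vamp1) and 2 lower (stxbp1a and syt1a) against amacrine and horizontal cells, with a median of -0.13 under DESeq2 size factors and closer to 0 under TMM. Against bipolar cells 8 of 12 were higher and 2 lower (sypb and vamp1). syt1a was at 619, 234 and 168 CPM in RGC against 2441, 527 and 795 CPM in amacrine and horizontal cells, and in bipolar cells at 23.2 CPM in 120 hpf B and 0 in 144 hpf A. With only the RGC that had a neuron gene, 7 factors were higher and 2 lower against amacrine and horizontal cells (tbr1b no longer called) and 9 and 2 against bipolar cells. The synaptic vesicle genes then gave 3 of 14 higher and 1 lower (sncgb and stxbp1a no longer called) against amacrine and horizontal cells, and 9 of 12 and 2 against bipolar cells. For the transmitter receptors 0 of 5 passed against amacrine and horizontal cells and 1 of 5, grin1a, against bipolar cells.

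Markers of epithelium, Mueller glia and mesenchyme differed between the classes as well. Of the epithelial list 5 of 5 tested genes were higher in RGC than in bipolar cells, with krt91 at 3768 and 8252 CPM in RGC of 120 hpf B and 144 hpf A against 46.4 and 34.6 CPM in bipolar cells. In each of these libraries 1 RGC held most UMIs of the list, 1902 in 120 hpf B and 1958 in 144 hpf A. The list's levels there are thus not levels of RGC at large. The cell of 120 hpf B had a neuron gene and stayed in the fits restricted to such RGC. Against amacrine and horizontal cells krt4, krt5 and krt91 were higher in RGC and icn2 lower, and 0 of 6 were higher with only the RGC that had a neuron gene (2 of 2 tested against bipolar cells). In amacrine and horizontal cells krt91 was at 25.1 and 7181 CPM in these libraries. Of the Mueller glia markers 4 of 5 (apoeb, glula, rlbp1a and slc1a2b) were higher in RGC than in amacrine and horizontal cells and 1 of 5, rlbp1a, than in bipolar cells, against 1 (glula) and 0 with only the RGC that had a neuron gene. Of the mesenchyme markers scinla was higher than in amacrine and horizontal cells, and col1a1a and col1a2 than in bipolar cells, of which col1a2 alone was called with only the RGC that had a neuron gene. The part of cells rich in such genes in the other class differences was not tested beyond the counts given without the 23 cells.

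**Figure D5:**
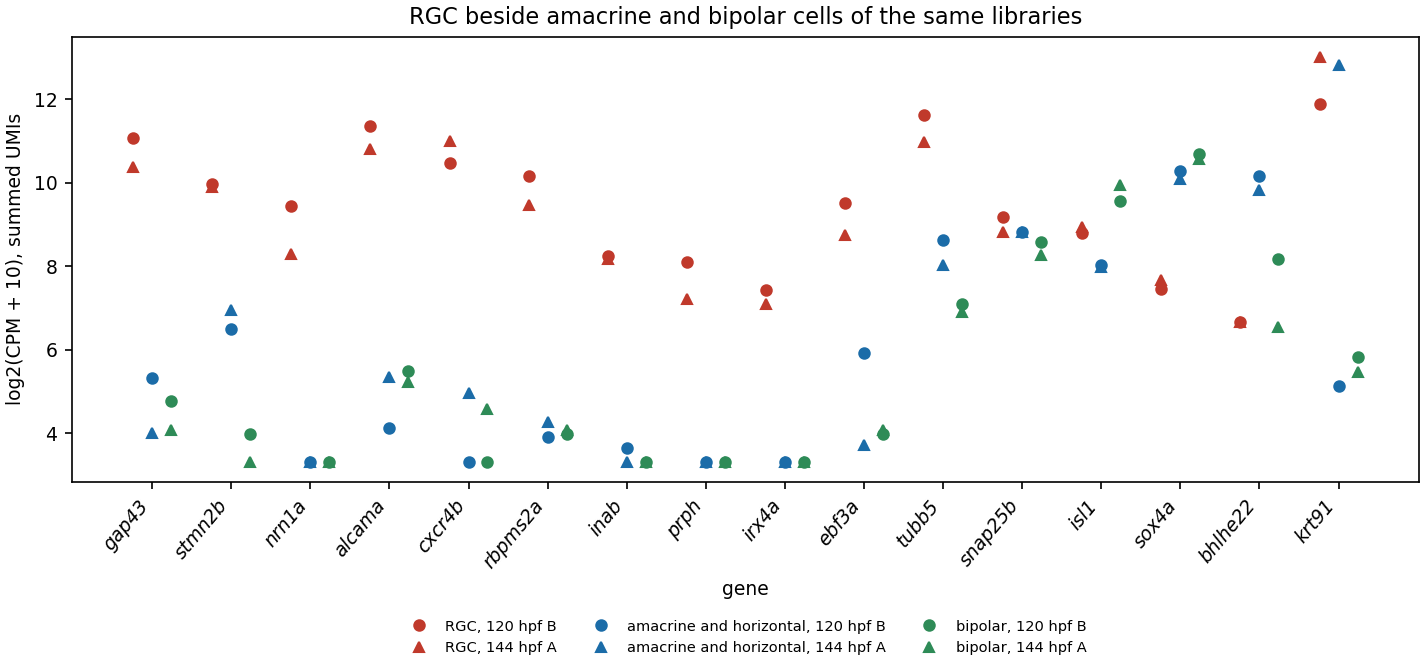
Level as log2(CPM + 10) of 16 genes in RGC (red), amacrine and horizontal cells (blue) and bipolar cells (green) of 120 hpf B (circles) and 144 hpf A (triangles). RGC lie above both other classes for gap43, stmn2b, nrn1a, alcama, cxcr4b, rbpms2a, inab, prph, irx4a, ebf3a and tubb5, and below both for sox4a, while krt91 is high in RGC of both libraries and in amacrine and horizontal cells of 144 hpf A.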

How the data were processed

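Single-cell libraries of GFP-sorted eye cells were made on the 10x Genomics platform. Per the labels, the authors counted reads with Cell Ranger 6.0 on GRCz11; the deposited values are whole-number UMI counts per feature and cell, 1 matrix for each of 5 time points, with libraries A and B, batch and chemistry given for each cell. The table of cells lists 2 libraries as V2 and 8 as V3, whereas the labels give v2 and the study's methods V3 throughout. The deposited matrices were already filtered, and the 12234 cells were used as given. The 16283 features were summed to 15413 symbols. No per-sample column of another series was present (0 columns).

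UMIs were summed per library and class, in libraries with at least 10 cells of a class. Sums were fitted in edgeR 4.0.16 (R 4.3.3; glmQLFit, glmQLFTest, TMM, filterByExpr with a minimum count of 5 and a total of 15) and p-values adjusted by Benjamini-Hochberg over all genes tested, at 0.05. Time was a numeric term, and class comparisons kept the library as a block. Shares were compared by an exact permutation test in scipy 1.17.1, with exact (Clopper-Pearson) 95% intervals. Cells were read with Python 3.11.15 and pandas 2.3.3. Named genes were the rule's genes and gap43, the 20 highest ratios over other cells (at least 50 CPM in RGC, above 0 in all but at most 1 library), the 10 smallest p-values in each direction over time, the 10 largest differences in each direction between classes (at least 50 CPM in the higher class), and members of the lists. Cells, lists and tests were chosen with earlier results of these data known. The test script was tested on simulated data. Scrublet (scanpy 1.11.5) called 24 doublets (0.196% of cells), too few for the caller to have worked, and 0 RGC among them. Doublets were therefore left in. Of 91 barcodes found in more than 1 library, 0 were of RGC. Alternatives were DESeq2 1.42.0, its size factors, no filter, other cell rules and minimum cell numbers, leaving out each library, and V3 libraries alone. Depth was 788648 to 15621511 UMIs per library and 11312 to 316108 UMIs over the RGC of a library tested. p-values measure the spread between these libraries.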

Additional observations from a re-analysis of the deposited data

Results flagged for a closer look

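In 29 groups of values a library that stood apart was searched for, and 3 were found. Most groups were 1 gene's log2 ratios of RGC over other cells in 5 libraries. These genes were those of the rule and of the highest ratios. Their groups were thus chosen on these values and share the same libraries, so no chance rate can be set beside the 3. The other groups were the shares of RGC in late and in early libraries, where no library stood apart. For stmn2a the ratio was 6.66 in 120 hpf A, where the other 4 libraries lay between 4.62 and 5.02. For irx4a it was 7.74 in 120 hpf A, where the others lay between 3.40 and 4.36. Both stood high in the library whose RGC had the fewest UMIs. For rbpms2b, a gene of the rule, it was 4.09 in 72 hpf A, where the others lay between 5.86 and 6.41. In that library 4 of 21 RGC lacked all 4 neuron genes and held 50.8% of the RGC UMIs, and rbpms2b was at 20.1 CPM in those 4 cells and 2805 CPM in the other 17.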

How the results depend on the processing

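Over time, where 4 genes rose and 4 fell, the counts higher and lower were 22 and 19 with no filter on low counts, 35 and 3 with RGC of at least 3 of the 7 genes (3 libraries), 9 and 1 without cells of the sensory neuron list, 12 and 2 without the mixed droplets that held 2 or more epithelial, mesenchymal, photoreceptor or lens markers (4 libraries), and 0 and 0 in V3 libraries. Chosen after seeing the data, they were 4 and 2 without cells over 10000 UMIs, 1 and 1 with libraries of at least 5 RGC, and 2 and 2 with RGC that had a neuron gene. Shared with the 4 and 4 main calls were 3 and 1 without cells of the sensory neuron list and 3 and 1 without mixed droplets. Without cells over 10000 UMIs 2 and 2 were shared, and with libraries of at least 5 RGC 0 and 1. Time as a factor gave 25 genes. Leaving out 1 library gave 0 to 15 higher and 0 to 4 lower. Library letters share no animals, and 1 time point alone had both with enough RGC, so no pairing could be checked; with the letter as a replicate block 8 rose and 5 fell. nanos1 changed by 0.45 with at least 3 genes, against -1.15; the cause was not tested.

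Against amacrine and horizontal cells, counts were 95 higher and 59 lower by DESeq2, 75 and 42 with no library block, 119 and 66 with libraries of at least 5 cells, 380 lower without mixed droplets, 161 higher with RGC that had a neuron gene, and 87 to 198 higher and 52 to 95 lower with 1 library left out. Against bipolar cells they were 89 and 88 by DESeq2 and 496 higher with no filter. No other alternative moved these counts by over 1.5 times. Batch as a block over time, and leaving out a library against bipolar cells, could not be fitted.

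The difference in share ran from -0.147 (without 120 hpf B) to 1.04 points with 1 library left out. The median ratio of the 20 highest genes was 4.78, 5.80 with 1 CPM added in place of 10 (13 of 20 genes shared), and 4.53 to 5.34 otherwise. Of named genes, 39 of 112 values over time lost their call and 1 turned, against 8 of 259 and 11 of 215 values lost, none turned, in the class comparisons. Few cells limit all values: the RGC of 120 hpf A held 11312 UMIs in total, so that 1 UMI is 88.4 CPM there.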

Other observations

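The most abundant feature of RGC was zgc:158463, listed by its transcript accession and annotated as ribosomal RNA, at 20327 CPM in RGC against 27629 CPM in other cells. It ran from 143 CPM in 72 hpf A to 1.1917e+05 CPM in 120 hpf A among the libraries tested, so that CPM of all other genes rests on a share of UMIs that differs between libraries.

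Nuclear factors of dorsal and ventral or nasal and temporal position were found in few RGC, hmx4 in 67, foxd1 in 55, tbx2b in 40 and foxg1a in 24. Of the 20 matched genes of this list 19 had a UMI in RGC, and hmx4 and foxd1 were among the genes higher in RGC than in bipolar cells. Against amacrine and horizontal cells 0 of 8 tested genes of the list were higher in RGC, and 1, tbx3a, was lower. hmx4 was found in 29.0% of RGC and 29.6% of amacrine and horizontal cells.

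RGC of 96 hpf B (9 cells) entered no test for lack of cells. They had nrgna at 631 CPM, grin1a at 789 CPM and gap43 at 1052 CPM, with atoh7 at 0. All 9 were among the cells that held 2 or more epithelial, mesenchymal, photoreceptor or lens markers.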
